A study of Mus musculus with 3 samples.

Results

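The acid-base transport genes of the incisor enamel organ were described in 3 RNAseq libraries, 1 from Stim1 cKO and 1 from each of its controls, Stim1 HT and Stim1 Ctrl. They were taken by gene symbol and comprise the subunits and accessory proteins of the vacuolar proton pump (V-ATPase; Atp6v and Atp6ap), the Slc4 family without Slc4a1, the Slc9, Slc26, Clcn and Car families, Cftr and Wdr72. This rule, which uses no measured value, gave 77 of the 20937 genes listed, and 74 of them had enough counts to be tested. Stim1 cKO was Stim1 fl/fl Cre+, with complete deletion, Stim1 HT was Stim1 fl/wt Cre+, with deletion of one allele, and Stim1 Ctrl was Stim1 fl/fl Cre-, with none, and all mice were aged 4 weeks. Floxed Stim1 alleles were thus present in all 3, while the AmelX-iCre transgene, which the amelogenin promoter drives in ameloblasts, was present in Stim1 cKO and Stim1 HT. The tissue was the whole incisor enamel organ, so other cells of the dissected sample also contributed RNA, and in such bulk samples fewer cells of a type and less RNA per cell cannot be told apart. Each genotype had 1 library, so its spread among mice was not measured, and every value below describes these libraries.

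The growth of enamel crystals releases protons, which maturation-stage ameloblasts help to neutralise. Carbonic anhydrases make bicarbonate from carbon dioxide and water, exchangers and cotransporters of the Slc4 and Slc26 families carry it across the cell membrane, sodium-proton exchangers of the Slc9 family move protons, and Cftr and the Clcn proteins carry chloride. The V-ATPase acidifies endosomes and lysosomes, and in some cells it sits in the plasma membrane. Its V1 domain hydrolyses ATP in the cytosol and its V0 domain conducts protons through the membrane. Several subunits exist as a widespread isoform and as one restricted to a few tissues, such as the proton-secreting cells of the kidney. Wdr72 is needed for normal enamel maturation, and its mutations cause amelogenesis imperfecta in humans.

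The libraries held 21496136 counts in Stim1 cKO, compared with 20216507 and 28265960 in the Stim1 HT and Stim1 Ctrl controls. Levels are in TMM-scaled CPM, counts relative to the scaled library size, and a count of 3, the limit of detection used here, equalled between 0.117 and 0.152 CPM. The smallest count in the table is 1, and genes with no read in one of the libraries are therefore not listed. Stim1 itself was at 72.8 CPM in the Stim1 cKO library and at 129 (Stim1 HT) and 186 CPM (Stim1 Ctrl) in the controls. Where 3 values are given without names, they are ordered as Stim1 cKO, Stim1 HT, Stim1 Ctrl. Markers of secretory-stage ameloblasts summed to 3623, 31246 and 23160 CPM, whereas those of maturation-stage ameloblasts summed to 925, 386 and 172 CPM. Of the 5 secretory markers, the 3 matrix genes Amelx, Ambn and Enam were over 2-fold below both controls. The others were not, with Mmp20 at 84.4, 123 and 98.4 CPM and Acp4 at 39.6, 85.4 and 56.2 CPM. Of the 6 maturation markers, Odam, Odaph and Slc24a4 were over 2-fold above both controls, while Klk4, at 28.9 CPM in Stim1 cKO, compared with 30.1 and 12.7 CPM in its Stim1 HT and Stim1 Ctrl controls, was not. The Stim1 cKO library also differed from both controls in markers of several other tissues. Photoreceptor markers summed to 1034 CPM in Stim1 cKO against 12.9 and 11.7 CPM in Stim1 HT and Stim1 Ctrl, with 7 of 7 tested over 2-fold above both, and lens markers summed to 215 CPM against 12.1 and 10.6 CPM, with 5 of 5 above. For neuron markers the sums were 1166, 339 and 269 CPM (7 of 10 above both), and for olfactory epithelium 583, 262 and 63.9 CPM (5 of 7 above both). Pde6b, Rcvrn and Crx of the photoreceptor list and 5 of the 10 lens genes are not among the genes listed. Osteoclast markers summed to 430, 1741 and 2041 CPM (8 of 10 over 2-fold below both) and skeletal muscle markers to 4784, 18732 and 21809 CPM (7 of 10 below both). The part of these cell types in the differences below was not tested.

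Upstream sequence was searched for 3 motifs. These are the E-box CACGTG, its extended form TCACGTGA, which contains it and resembles the site that Tfeb binds at lysosomal genes, and the forkhead motif TGTTTAC, of the kind bound by Foxi1, a regulator of proton-secreting cells. RefSeq windows on GRCm38.p6, from 250 bases before to 50 after each start, were found for 54 of the 77 genes, and both strands were searched. CACGTG was present in 10 of the 54 (18.5%), against 8.09% of all 27025 genes with a window, and TCACGTGA in 5 (9.26%), against 1.12%. Within the V-ATPase, the E-box was in 4 of 11 widespread or accessory genes (36.4%) and in 0 of 5 tissue-restricted isoforms. The difference was not tested, and 0 of so few restricted isoforms cannot be set apart from the 8.09% of all genes. TGTTTAC was in 3 of the 54 (5.56%), against 4.05% of all genes, and Atp6v1b1 was the one restricted isoform that held it. The parts of 5 windows before the start that lie outside annotated exons are printed 5′ to 3′, chosen to show each motif in place beside a window without one. Capitals mark the E-box, the extended E-box of Atp6v1a and the forkhead motif of Atp6v1b1, and Atp6v1c2 has none of these letters in its window. The RefSeq start lies inside the gene span of GENCODE by 4629 bases in Atp6v1c2, 446 in Atp6v1a, 27 in Atp6v1b1 and 4 in Atp6v0b.
Atp6v1a, chr16:44139306-44139461, minus strand: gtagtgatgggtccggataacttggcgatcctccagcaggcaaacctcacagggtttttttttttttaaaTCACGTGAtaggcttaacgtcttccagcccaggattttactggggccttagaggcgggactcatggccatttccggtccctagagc
Atp6v0b, chr4:117887334-117887579, minus strand: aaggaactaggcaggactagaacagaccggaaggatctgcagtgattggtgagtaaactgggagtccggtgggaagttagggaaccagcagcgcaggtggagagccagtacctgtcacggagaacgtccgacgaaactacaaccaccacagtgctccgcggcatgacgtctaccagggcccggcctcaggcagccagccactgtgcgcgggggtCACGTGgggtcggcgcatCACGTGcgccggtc
Clcn7, chr17:25133141-25133390, plus strand: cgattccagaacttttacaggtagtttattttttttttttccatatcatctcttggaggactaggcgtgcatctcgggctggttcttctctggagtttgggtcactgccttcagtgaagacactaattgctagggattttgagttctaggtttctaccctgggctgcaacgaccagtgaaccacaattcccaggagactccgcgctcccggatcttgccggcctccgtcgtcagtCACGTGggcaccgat
Atp6v1b1, chr6:83742767-83742989, plus strand: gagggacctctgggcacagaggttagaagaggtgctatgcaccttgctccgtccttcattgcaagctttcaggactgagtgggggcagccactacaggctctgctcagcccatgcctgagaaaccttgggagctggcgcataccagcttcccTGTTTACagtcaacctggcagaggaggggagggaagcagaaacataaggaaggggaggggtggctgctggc
Atp6v1c2, chr12:17324731-17324980, minus strand: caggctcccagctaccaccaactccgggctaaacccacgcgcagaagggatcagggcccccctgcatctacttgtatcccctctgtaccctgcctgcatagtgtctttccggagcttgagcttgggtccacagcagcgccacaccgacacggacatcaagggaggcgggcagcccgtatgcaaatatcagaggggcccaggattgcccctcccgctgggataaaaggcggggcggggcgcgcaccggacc
Atp6v1a and Atp6v0b encode widespread subunits of V1 and V0, Clcn7 the chloride-proton exchanger of lysosomes, and Atp6v1b1 and Atp6v1c2 restricted isoforms of V1. In Atp6v1a the extended motif began 132 bases before the RefSeq start. In Clcn7 an E-box began 15 bases before it, and an extended E-box lies just after the start, in the part of the window that is not printed. Atp6v1b1 held the forkhead motif 98 bases before its start. The levels of these genes follow, and no binding was measured.

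Of the 74 genes tested, 40 were above both controls in Stim1 cKO, 23 were below both and 11 lay between them. Of all 18702 genes tested, 8159 were above both, 7872 below both and 2671 between. The difference from both controls was over 2-fold for 20 of the 74 genes above (27.0%, against 19.1% of all genes tested) and for 4 below (5.41%, against 8.23%). The number below was 8 without Stim1 HT. Set against the mean of both controls, Stim1 cKO had a median log2 ratio of 0.31 over the 74 genes and -0.0099 over all genes tested. In edgeR's quasi-likelihood test of Stim1 cKO against the grouped controls, 0 of the 74 passed an adjusted p (Benjamini-Hochberg) under 0.01 with a fold change over 2. Of all genes, 0.0749% passed as higher and 0% as lower. Before adjustment, 23 of the 74 had p under 0.05 as higher (31.1%, against 18.5% of all genes) and 7 as lower (9.46%, against 13.4%). DESeq2 called 9 of 73 as higher (12.3%, against 6.42% of all genes) and 2 as lower (2.74%, against 5.1%). The higher calls were Atp6v1b1, Atp6v1c2, Atp6v1g2, Car6, Car10, Car12, Slc4a7, Slc4a8 and Slc4a10, and the lower calls Car1 and Car3. The only spread either test could use was that between the control libraries, whose genotypes are not the same.

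**Figure D1:**
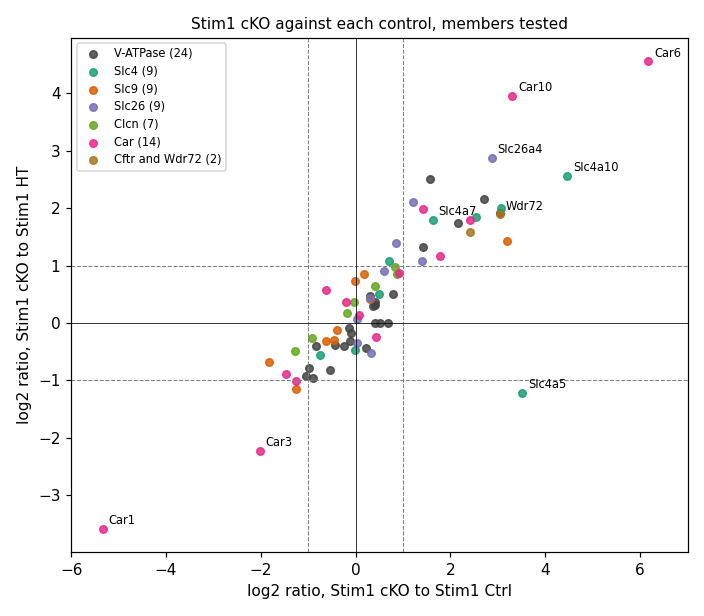
Each point is one of the 74 tested acid-base genes, placed by its log2 ratio of Stim1 cKO to Stim1 Ctrl (x axis) and to Stim1 HT (y axis) and coloured by family, with dashed lines at 2-fold. The 20 genes in the upper right corner are led by Car6, the 4 in the lower left include Car1 and Car3, and Slc4a5 lies apart because its controls differ from each other.

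In the V-ATPase, the tissue-restricted isoforms and the widespread subunits differed in their ratios. Of the 6 restricted isoforms, 4 were over 2-fold above both controls, with a median log2 ratio of 1.66, whereas 1 of the 18 other V-ATPase genes was, with a median of -0.13. That gene was Atp6ap1l, a relative of an accessory subunit, with 14 counts in Stim1 cKO, compared with 2 and 5 in the Stim1 HT and Stim1 Ctrl controls. Of all genes tested, 19.1% were over 2-fold above both controls. Without the processed pseudogene Atp6v0c-ps2, the median of the other V-ATPase genes was -0.12. Tcirg1, an a subunit of osteoclasts and lysosomes, falls outside the symbol rule and both groups, and its log2 ratio was -0.09. Over all 24 genes the median log2 ratio was 0.21, and 12 were above both controls, 10 below both and 2 between. This median was -0.00087 without Stim1 Ctrl and 0.33 without Stim1 HT, and the difference between the groups of isoforms was not tested.

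In the V1 domain, the catalytic A subunit Atp6v1a was at 180 CPM in the Stim1 cKO library and at 140 (Stim1 HT) and 135 CPM (Stim1 Ctrl) in the controls. Atp6v1b2, the widespread B subunit, was at 156, 167 and 173 CPM. Neither differed by more than 1.5-fold from a control, and the log2 ratio of Atp6v1b2, -0.12, became 0.14 under scaling by library size alone. Atp6v1b1 is the B subunit of kidney, inner ear and epididymis with its gene on chromosome 6 (83742990 to 83758855). It was at 19.8 CPM in Stim1 cKO while Stim1 HT and Stim1 Ctrl were at 5.23 and 2.41 CPM, so that Stim1 cKO had 3.78 times the level of Stim1 HT and 8.21 times that of Stim1 Ctrl. The controls themselves differed by 2.17-fold, and edgeR gave an adjusted p of 0.0605. Atp6v1c2, a C subunit known from kidney and lung (chromosome 12, 17284721 to 17329359), was at 37.1 CPM in Stim1 cKO, compared with 8.32 and 5.67 CPM in its Stim1 HT and Stim1 Ctrl controls. edgeR gave it a log2 fold change of 2.41 (adjusted p 0.0266), and its widespread counterpart Atp6v1c1 was at 55.0, 62.0 and 59.1 CPM. The exons of Atp6v1c2 overlap those of the antisense gene Pdia6, and whether counting used the strand is not given, so their reads cannot be told apart there. Pdia6 was at 117 CPM in the Stim1 cKO library and at 261 (Stim1 HT) and 249 CPM (Stim1 Ctrl) in the controls and was lower in Stim1 cKO than in both. Atp6v1g2, the G subunit of neurons, was at 22.5, 6.70 and 5.05 CPM (edgeR, adjusted p 0.0441), and the widespread Atp6v1g1 at 149, 148 and 104 CPM. The exons of Atp6v1g2 overlap those of the antisense gene Nfkbil1, at 11.8, 15.4 and 12.2 CPM. Neuron markers were also higher in Stim1 cKO, as given above, and their part in the level of Atp6v1g2 was not tested. The other subunits of V1 (Atp6v1d, Atp6v1e1, Atp6v1f and Atp6v1h) had log2 ratios between -0.22 and 0.33.

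In the V0 domain, 6 of 10 genes were below both controls, 0 of them over 2-fold, and the median log2 ratio was -0.48. Of all 18702 genes tested, 7872 were below both controls, and 8.23% of all genes were over 2-fold below. One of the 6, Atp6v0c-ps2, is annotated as a processed pseudogene, and without it 5 of 9 were below with a median of -0.33. Atp6v0c encodes the proton-carrying ring subunit and was at 34.4 CPM in Stim1 cKO while Stim1 HT and Stim1 Ctrl were at 64.9 and 71.2 CPM (edgeR, adjusted p 0.0728). Its pseudogene copy Atp6v0c-ps2, at 9.003, 15.6 and 17.9 CPM, could share its reads, so both levels are uncertain and may hold 1 signal. Atp6v0d2, the d subunit of osteoclasts and kidney, was at 13.4, 25.8 and 25.02 CPM, and was the one restricted isoform below both controls. Osteoclast markers summed to 430 CPM in Stim1 cKO and to between 1741 and 2041 CPM in the controls, and their part in this difference was not tested. Atp6v0a4, the a subunit of kidney and inner ear (chromosome 6, 38048483 to 38124586), was at 14.2 CPM in Stim1 cKO, compared with 5.68 and 5.28 CPM in its Stim1 HT and Stim1 Ctrl controls, with an edgeR adjusted p of 0.0915. Its exons overlap those of D630045J12Rik on the same strand and of Tmem213 on the other. Tmem213 was at 5.41, 1.07 and 0.194 CPM, higher in Stim1 cKO as Atp6v0a4 was, and D630045J12Rik at 37.6, 43.2 and 48.2 CPM. The widespread Atp6v0a1 was at 120, 86.8 and 97.9 CPM, and Atp6v0a2 at 22.7, 30.04 and 40.7 CPM. The ratios of the 10 genes ranged on the log2 scale from -0.98 for Atp6v0c to 1.37 for Atp6v0a4.

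**Figure D2:**
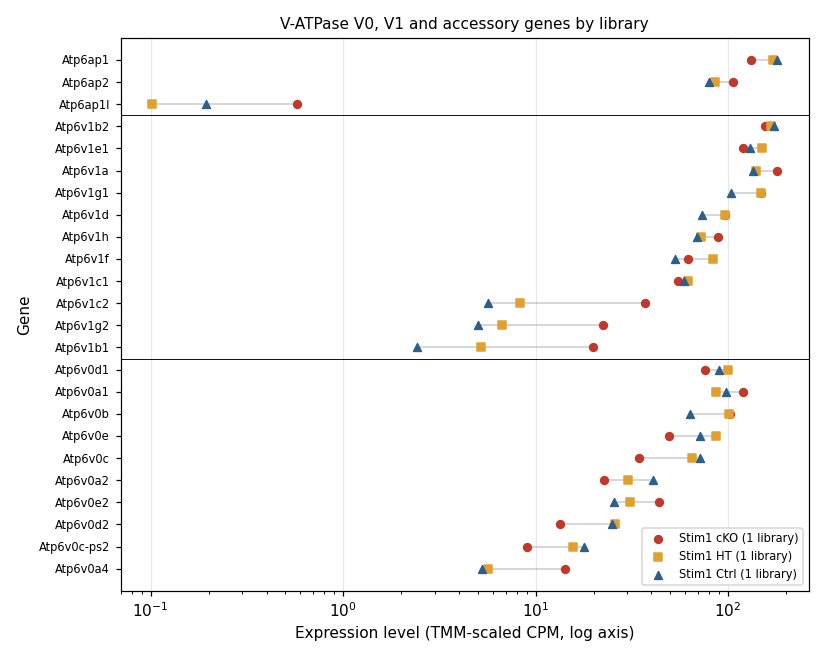
Expression levels (TMM-scaled CPM, log axis) of the 24 V-ATPase genes in the Stim1 cKO, Stim1 HT and Stim1 Ctrl libraries, 1 point per library. The 3 points of most widespread subunits lie close together, while Atp6v1c2, Atp6v1g2, Atp6v1b1 and Atp6v0a4 have the Stim1 cKO point to the right of both controls.

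Levels of isoforms of the same subunit were compared as CPM per kb of exon, and the restricted isoform was expressed as a share of the listed isoforms. Atp6v1c2 made up 63.5% of the C subunit level in Stim1 cKO, compared with 25.7% (Stim1 HT) and 19.8% (Stim1 Ctrl), and was above Atp6v1c1 in Stim1 cKO and below it in both controls. The share of Atp6v1b1 in the B subunit was 13.3%, 3.65% and 1.66%, and that of Atp6v0a4 among Atp6v0a1, Atp6v0a2 and Atp6v0a4 was 11.6%, 6.06% and 4.82%. In subunit e, Atp6v0e2 was above Atp6v0e in Stim1 cKO, at 58.1% against 35.7% in Stim1 HT and 35.6% in Stim1 Ctrl. In subunit G, Atp6v1g2 held 6.41%, 2.002% and 2.15%. Atp6v0d2 was the exception, with 10.4% in Stim1 cKO, compared with 14.5% and 15.5% in the Stim1 HT and Stim1 Ctrl controls. In 4 of the 6 subunits the widespread isoforms stayed above the restricted one in all 3 libraries. With the length of the longest transcript in place of all exons this held in 3, because Atp6v0a4, at 4.30 CPM per kb in Stim1 cKO, then lay just above Atp6v0a2 at 4.25. Tcirg1, another a subunit, falls outside the symbol rule and the shares, which have no replicate error.

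**Figure D3:**
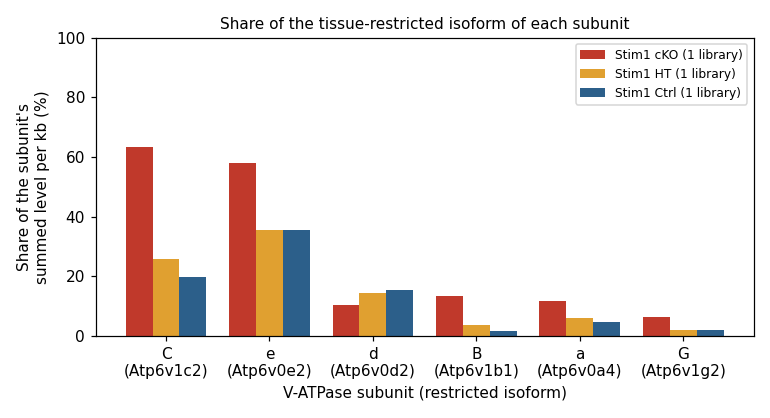
Share of the tissue-restricted isoform in the summed level per kb of each V-ATPase subunit (%), with 1 bar per library. The C subunit shows the widest gap, with Atp6v1c2 at 63.5% in Stim1 cKO and at 25.7% and 19.8% in the controls, and subunit d is the one whose Stim1 cKO bar lies below both of its controls.

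Of the 14 carbonic anhydrases tested, 5 were over 2-fold above both controls and 3 over 2-fold below, with a median log2 ratio of 0.08. The shares of all genes tested were 19.1% above and 8.23% below. Car6, a secreted enzyme known from saliva, is encoded on chromosome 4 (150187015 to 150201332). It had 5613 counts in Stim1 cKO, compared with 194 and 83 in the Stim1 HT and Stim1 Ctrl controls, or 232, 9.85 and 3.22 CPM. This was 23.5 times the level in Stim1 HT and 71.9 times that in Stim1 Ctrl, and edgeR gave an adjusted p of 0.0208. Per kb of exon, Car6 ranked 2nd of the 77 genes in Stim1 cKO, 29th in Stim1 HT and 48th in Stim1 Ctrl. Markers of salivary or lacrimal gland summed to 460, 516 and 133 CPM, with 6 of 11 tested over 2-fold above both controls and 2 over 2-fold below. Car6 was also among the genes chosen as established in maturation-stage ameloblasts, whose markers summed to 925, 386 and 172 CPM. The part of gland cells or of ameloblast stage in the level of Car6 was not tested.

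Car12, a membrane enzyme with its active site outside the cell, was at 93.8 CPM in Stim1 cKO while Stim1 HT and Stim1 Ctrl were at 23.8 and 34.8 CPM, with a log2 fold change of 1.68 at an edgeR adjusted p of 0.0373. Car8, Car10 and Car11 encode related proteins without the catalytic activity, known from the nervous system. Car10 was at 14.2 CPM in Stim1 cKO, compared with 0.913 and 1.44 CPM in its Stim1 HT and Stim1 Ctrl controls (edgeR, adjusted p 0.0261). Car8 was at 22.8, 10.1 and 6.68 CPM, and Car11 at 14.6, 4.21 and 2.76 CPM. As neuron and photoreceptor markers were also higher in the same library, their values stand beside these genes, and their part was not tested.

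Car1, Car2 and Car3 lie in a cluster on chromosome 3 and encode cytosolic enzymes. Car3, of low activity and abundant in muscle and fat, was at 188 CPM in the Stim1 cKO library and at 875 (Stim1 HT) and 766 CPM (Stim1 Ctrl) in the controls, which made it the acid-base gene with the highest level per kb in both controls. edgeR gave it a log2 fold change of -2.13 (adjusted p 0.0356). Muscle markers, at 4784 CPM in Stim1 cKO and 18732 to 21809 CPM in the controls, and adipocyte markers, at 100, 475 and 262 CPM with 3 of 6 over 2-fold below both, were lower in the same library. Car1, of red blood cells, had 14 counts in Stim1 cKO, compared with 136 and 601 in the Stim1 HT and Stim1 Ctrl controls, equal to 0.578 CPM (95% Poisson interval 0.316 to 0.970), 6.90 and 23.3 CPM. Stim1 HT was thus 3.38-fold below Stim1 Ctrl, and erythroid markers summed to 1059, 2354 and 1761 CPM, with 7 of 10 over 2-fold below both controls. Car2, the highly active enzyme of osteoclasts, red cells and many epithelia, was at 42.7 CPM in Stim1 cKO while Stim1 HT and Stim1 Ctrl were at 79.1 and 119 CPM, with an edgeR adjusted p of 0.0907. The part of muscle, fat, red cells and osteoclasts in these 3 genes was not tested. Car14, a membrane enzyme, was at 7.72, 15.6 and 18.4 CPM, and its exons overlap those of the antisense gene Aph1a, at 35.3, 80.9 and 79.3 CPM. Car4, Car7, Car9 and Car13 had log2 ratios between -0.15 and 0.11, Car5b had one of 0.89, and Car15 and Car5a had between 1 and 5 counts in each library and were not tested.

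**Figure D4:**
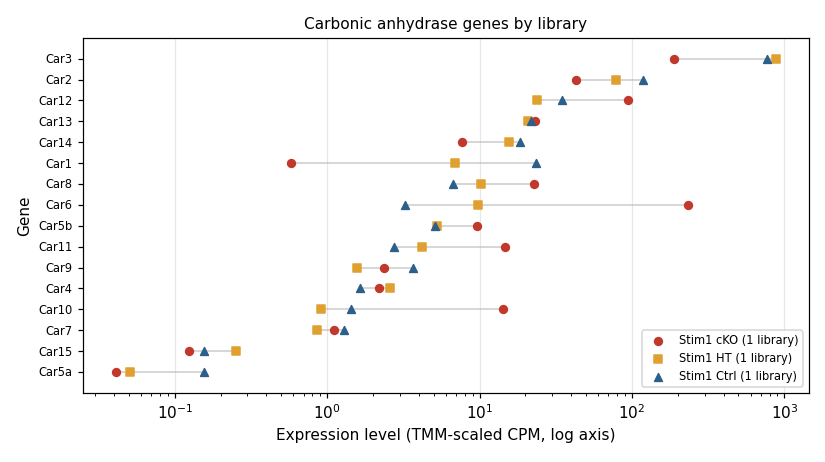
Expression levels (TMM-scaled CPM, log axis) of the 16 carbonic anhydrase genes in the 3 libraries, 1 point per library. Car6 and Car10 have the Stim1 cKO point far to the right of both controls, Car1 and Car3 far to the left, and the levels of Car13 lie together.

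Among the 9 genes of the Slc4 family, 4 were over 2-fold above both controls, 0 were over 2-fold below, and the median log2 ratio was 0.89. Over all genes tested, 19.1% were that far above and 8.23% that far below. Slc4a7, an electroneutral sodium-bicarbonate cotransporter on chromosome 14 (14702279 to 14799940), was at 84.9 CPM in Stim1 cKO, compared with 24.4 and 27.5 CPM in its Stim1 HT and Stim1 Ctrl controls. Its controls lay close together, and edgeR gave a log2 fold change of 1.71 (adjusted p 0.0233). Slc4a8 and Slc4a10, sodium-driven transporters known from neurons, were at 27.6, 6.85 and 3.30 CPM and at 12.0, 2.03 and 0.544 CPM. In both genes the order was Stim1 cKO, Stim1 HT, Stim1 Ctrl, with Stim1 HT 2.07-fold and 3.73-fold above Stim1 Ctrl, and edgeR gave adjusted p-values of 0.0479 and 0.0681. The part of the neuron markers in these levels was not tested. Slc4a11, a relative known from the corneal endothelium, was at 10.4, 2.89 and 1.79 CPM. The transporters best known from ameloblasts were not among these 4. Slc4a2, the chloride-bicarbonate exchanger AE2, was at 59.4 CPM in the Stim1 cKO library and at 87.4 (Stim1 HT) and 99.5 CPM (Stim1 Ctrl) in the controls, with an edgeR adjusted p of 0.166. Slc4a4, the electrogenic sodium-bicarbonate cotransporter NBCe1, was at 62.2, 43.9 and 44.4 CPM, with an edgeR adjusted p of 0.211. The exons of Slc4a2 overlap those of the antisense gene Fastk, at 82.3, 89.7 and 104 CPM. Slc4a5, a cotransporter of the choroid plexus, had 43 counts in Stim1 cKO, compared with 81 and 4 in the Stim1 HT and Stim1 Ctrl controls, so the control libraries lay on either side of Stim1 cKO. Slc4a9, with 15, 17 and 16 counts, showed no difference detectable at this depth.

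The Slc26 anion exchangers had 3 of 9 tested genes over 2-fold above both controls, against 19.1% of all genes, and a median log2 ratio of 0.74. Slc26a4, or pendrin, exchanges chloride for bicarbonate in the inner ear, thyroid and kidney and is encoded on chromosome 12 (31519827 to 31559969). It had 144 counts in Stim1 cKO, compared with 16 and 21 in the Stim1 HT and Stim1 Ctrl controls. These equalled 5.95, 0.812 and 0.816 CPM, so Stim1 cKO was 7.32 and 7.29 times its controls, with an edgeR adjusted p of 0.0407. Slc26a1, a sulfate exchanger, was at 8.26, 3.91 and 3.15 CPM, and its exons overlap those of the antisense gene Idua, at 10.7, 8.53 and 13.7 CPM. Slc26a9, a chloride transporter of epithelia, was at 4.83, 1.12 and 2.10 CPM. Slc26a6 was within 1.05-fold in Stim1 cKO and both controls, at 7.39, 7.05 and 7.26 CPM. Slc26a7 was at 22.4, 28.5 and 22.1 CPM, and its log2 ratio of -0.18 became 0.07 under scaling by library size alone. Slc26a3, with 4, 1 and 3 counts, was at or near the limit of detection and was not tested.

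The Slc9 sodium-proton exchangers had a median log2 ratio of -0.27, with 5 of 9 genes below both controls. Of all 18702 genes tested, 7872 were below both. Over 2-fold from both controls were 1 of the 9 above (19.1% of all genes) and 1 below (8.23% of all genes). Slc9a2, of epithelia, was over 2-fold below both controls, at 7.06, 15.7 and 16.8 CPM (edgeR, adjusted p 0.0987). Slc9a4 was over 2-fold above both, on 43, 13 and 5 counts. Of the exchangers of intracellular membranes, Slc9a7, Slc9a8 and Slc9a9 had log2 ratios of 0.31, -0.38 and -0.48.

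Of the 7 Clcn genes, 0 were over 2-fold from both controls, against 19.1% of all genes tested above and 8.23% below. Clcn3 and Clcn4, of endosomes, came closest, at 96.3, 49.1 and 54.5 CPM and at 177, 98.7 and 97.4 CPM in Stim1 cKO, Stim1 HT and Stim1 Ctrl, and both passed 2-fold under scaling by library size alone. Clcn7, at 42.2, 37.6 and 47.7 CPM, lay between its controls, and the direction of its log2 ratio of -0.02 changed with the control and with the scaling. Clcn1, the chloride channel of skeletal muscle, was at 9.21, 12.8 and 22.5 CPM beside the lower muscle markers, whose part was not tested. Its exons overlap those of the antisense gene Fam131b, at 11.6, 5.18 and 5.17 CPM. Clcn5 was at 38.6, 46.0 and 73.3 CPM.

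Cftr and Wdr72 were both over 2-fold above both controls. Cftr, the chloride channel mutated in cystic fibrosis, is encoded on chromosome 6 (18170687 to 18322768) and was at 19.7 CPM in Stim1 cKO, compared with 6.60 and 3.69 CPM in its Stim1 HT and Stim1 Ctrl controls. Wdr72, on chromosome 9 (74110356 to 74283308), had 419, 92 and 54 counts, or 17.3, 4.67 and 2.10 CPM. For Wdr72 this was 3.71 times Stim1 HT and 8.25 times Stim1 Ctrl, while Stim1 HT was 2.23 times Stim1 Ctrl. The edgeR adjusted p was 0.0675 for Cftr and 0.0661 for Wdr72. In both genes the libraries stood in the order Stim1 cKO, Stim1 HT, Stim1 Ctrl, which was also the order of the summed maturation markers. The part of the stage composition of the sample was not tested.

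**Figure D5:**
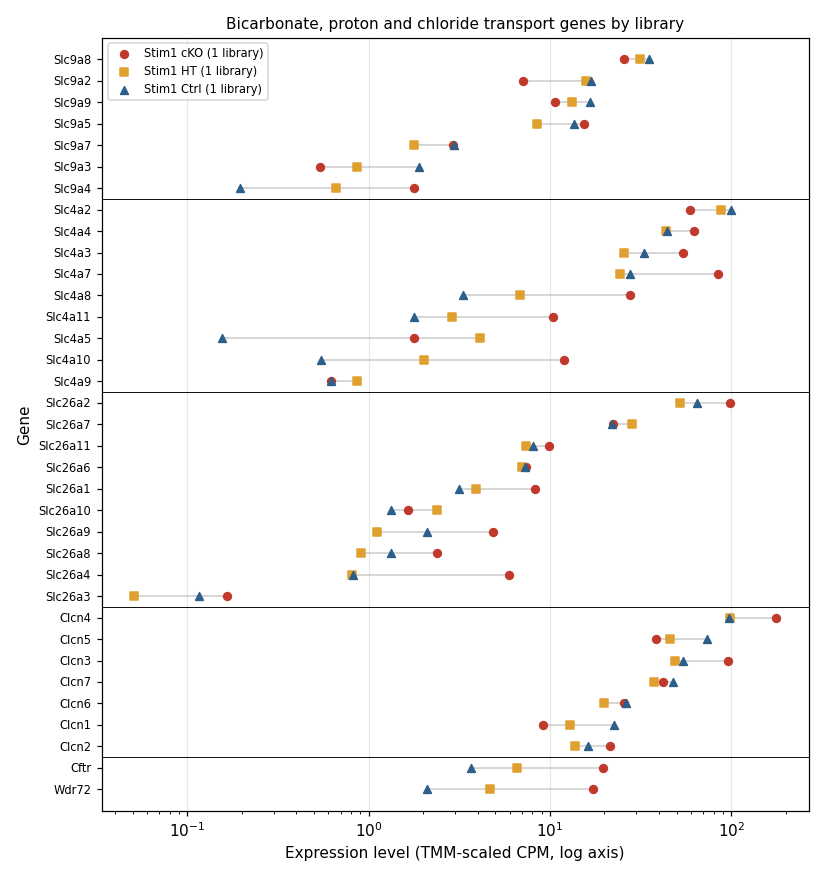
Expression levels (TMM-scaled CPM, log axis) of members of the Slc9, Slc4, Slc26 and Clcn families, Cftr and Wdr72 in the 3 libraries, 1 point per library. Slc4a7, Slc4a8, Slc4a10, Slc26a4, Cftr and Wdr72 have the Stim1 cKO point to the right of both controls, and Slc4a5 has its controls on either side.

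Stim1 HT and Stim1 Ctrl were compared directly to see how far the controls lay apart. Stim1 HT was over 2-fold above Stim1 Ctrl in 7 of the 74 genes (9.46%, against 9.82% of all genes), namely Atp6v1b1, Car6, Slc4a5, Slc4a8, Slc4a10, Slc9a4 and Wdr72. It was over 2-fold below in Car1, Car9 and Slc9a3, 3 of the 74 (4.05%, against 3.64%). These libraries are also the controls of the comparisons above. Over the 74 genes, the median of log2 ratios between Stim1 HT and Stim1 Ctrl (Stim1 HT over Stim1 Ctrl) was -0.03.

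Other genes of proton, bicarbonate and chloride handling, which the symbol rule leaves out, were read from a list of 48, of which 44 were tested. In edgeR's test 0 of them passed an adjusted p under 0.01, and 8 reached an unadjusted p under 0.05 as higher and 5 as lower. DESeq2 called 2 higher and 1 lower, 6 were over 2-fold above both controls and 3 below, and the median log2 ratio was 0.04. Over all genes, 18.5% reached that unadjusted p in edgeR as higher and 13.4% as lower. DESeq2 called 6.42% of all genes higher and 5.1% lower. Of all genes tested, 19.1% were over 2-fold above both controls and 8.23% below. Dmxl2, a subunit of the rabconnectin complex that assembles the V-ATPase, was at 62.1 CPM in the Stim1 cKO library and at 15.2 (Stim1 HT) and 12.3 CPM (Stim1 Ctrl) in the controls (edgeR, adjusted p 0.0184). Tcirg1, the a subunit of osteoclasts and lysosomes, was at 60.4, 60.0 and 68.3 CPM. Of the transcription factors, Tfeb was at 16.6, 44.7 and 49.1 CPM (edgeR, adjusted p 0.0343), and Foxi1 at 10.9, 2.89 and 0.816 CPM (edgeR, adjusted p 0.101). The other factors of the list, Tfe3 and Mitf, were at 34.5, 39.4 and 44.8 CPM and at 10.1, 8.98 and 9.05 CPM. Slc16a1, a lactate-proton cotransporter, was at 28.9, 62.5 and 66.3 CPM. Of the chloride transport genes, Slc12a2 was at 215, 107 and 102 CPM and Ano1 at 74.2, 31.1 and 40.0 CPM.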

How the data were processed

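RNA of the whole incisor enamel organ was sequenced in 3 libraries, 1 per genotype. The labels name FastQC, STAR and DESeq2, with versions, genome build, counting tool and strand setting not given in the sources used here. The study's methods name a directional NEBNext kit and the labels a SMARTER kit. The authors deposited raw counts per gene symbol without normalization, and these were used as deposited.

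The members and lists were chosen with earlier results of these data known. The Stim1 cKO library was compared with both controls taken as 1 group in edgeR 4.0.16 (R 4.3.3): TMM factors, filterByExpr (18702 genes kept), quasi-likelihood test, Benjamini-Hochberg adjustment over all genes tested, called at an adjusted p under 0.01 and a fold change over 2, the study's thresholds. Residual degrees of freedom were 1. Ratios to each control are of TMM-scaled CPM, with no test. Alternatives were DESeq2 1.42.0, other scalings, filters and thresholds, and leaving out a control. The tests were tested on simulated data. Genes named with all values were those established in maturation-stage ameloblasts, those over 2-fold from both controls whose mean count was 50 or more, and the V-ATPase isoforms. Atp6ap1l, Slc4a5, Slc9a4 and some others were named after their values were seen. Exons of Atp6v0a2, Atp6v0b, Atp6v1e1, Atp6v1h, Car5a, Car9, Cftr, Clcn2, Clcn4, Slc26a10 and Slc9a4 also overlap antisense genes. Values of 2 Slc9 members are not reported here. Marker genes were lists for secretory- and maturation-stage ameloblast, enamel epithelium, osteoclast, macrophage, erythroid, skeletal muscle, adipocyte, neuron, myelinating glia, photoreceptor, retinal pigment epithelium, lens, salivary or lacrimal gland, olfactory epithelium, cartilage, and bone and odontoblast. Gene positions and exon lengths are from GENCODE M21 (GRCm38) and promoter windows from RefSeq (GRCm38.p6). Python 3.11.15, pandas 2.3.3, numpy 2.4.6 and matplotlib 3.10.9 were used. Poisson intervals (95%) and the limit of 3 counts cover counting error only.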

Additional observations from a re-analysis of the deposited data

How the results depend on the processing

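Without a filter on low counts, edgeR called 4 of the acid-base genes (Atp6v1c2, Car6, Car10 and Slc4a7) in place of 0, with 907 genes called in all in place of 14. With an adjusted p under 0.05 it called 9, and DESeq2 called 11. The 20 genes over 2-fold above both controls became 25 with scaling by library size only (Clcn3 and Clcn4 among them), 26 at 1.5-fold and 12 at 3-fold, and 21 to 22 when either control was left out. The 4 genes below both became 2 with scaling by library size only, 9 at 1.5-fold, 2 at 3-fold, 8 without Stim1 HT and 5 without Stim1 Ctrl. The 10 genes over 2-fold apart between the controls became 26 at 1.5-fold and 5 at 3-fold. The V-ATPase median log2 ratio of 0.21 became 0.33 with upper-quartile factors and 0.46 with library size only, scalings that moved the median of all genes to 0.12 and 0.25, and it was -0.00087 without Stim1 Ctrl and 0.33 without Stim1 HT. Over the 40 named genes, 222 alternative values lay inside the 95% counting interval of the gene's ratio to the pooled controls and 97 outside it. The sign changed under at least 1 setting in 4 genes (Atp6v1b2, Atp6v1c1, Clcn7 and Slc26a7). No called value changed direction, as edgeR called 0 of the 74 genes. No paired analysis was possible because each genotype has 1 library. The V0 median log2 ratio of -0.48 became -0.33 without the pseudogene Atp6v0c-ps2, an alternative chosen after seeing the data. Depth limits Atp6ap1l, Slc26a3, Car5a, Car15 and Slc4a9, with at most 17 counts in a library.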

Other observations

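Markers of further cell types were summed beside those given in the report. Enamel epithelium markers were at 2928 CPM in Stim1 cKO while Stim1 HT and Stim1 Ctrl were at 1947 and 1793 CPM, with 1 of 6 over 2-fold above both controls. Macrophage markers were at 140, 304 and 339 CPM (4 of 7 over 2-fold below both) and those of myelinating glia at 892, 1720 and 2367 CPM (1 of 8 below both). Cartilage markers were at 84.9, 492 and 686 CPM (2 of 6 below both), and bone and odontoblast markers at 23617, 26067 and 41601 CPM (2 of 6 below both). Markers of retinal pigment epithelium were at 28.0, 9.13 and 6.72 CPM, with 2 of 5 above both. Slc4a1, the anion exchanger of red blood cells that the symbol rule leaves out, was at 12.1, 77.8 and 182 CPM, in the same order as Car1.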
